A study of Bos taurus with 12 samples.

Results

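Blood vessels in bovine biceps brachii were followed through 36 genes that mark their cells: 19 endothelial genes, 4 genes for signals that act on endothelium, 8 genes of contractile smooth muscle and 5 genes of pericytes. The rule that lists them names known marker genes and uses no measured value, although earlier results of these data were known when it was written. A probe could be matched to 35 of them, FLT1 being the exception, and all 35 passed the filter on dim probes, among 13673 genes that did. No marker passed the test in any of the 3 comparisons. The highest-ranked was PLVAP, which lay higher in all 4 bulls given dexamethasone with clenbuterol than in all 4 untreated bulls, and whose adjusted p did not reach the threshold.

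The muscle came from 12 bulls aged 18 to 20 months, 4 in each of 3 groups, taken from a study of 24 randomly divided animals, 8 per group. The control bulls were untreated. The dexamethasone bulls received the synthetic glucocorticoid dexamethasone in feed, 0.75 mg per animal for 42 days. The combination bulls received a lower dexamethasone dose of 0.66 mg over 21 days together with clenbuterol, a beta-adrenergic agonist, over 28 days in steps of 2 mg (the first week), 4 mg (the second) and 6 mg (the last weeks). Combination and dexamethasone bulls therefore differed in dexamethasone dose and duration as well as in clenbuterol. The hybridised samples were those with the best RNA of their group, not a random draw.

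A muscle capillary is a tube of endothelial cells wrapped by pericytes, and the arterioles that feed it are wrapped by contractile smooth muscle. Endothelial cells hold together through junction proteins such as VE-cadherin, sense growth factors through the VEGF and TIE receptors, and keep their identity through the ETS factor ERG and SOX factors. Pericytes and smooth muscle cells, together called mural cells, carry the PDGF receptor beta and NOTCH3. Glucocorticoids act on many vessel cells, and beta-adrenergic agonists act on vascular tone.

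Levels are log2 signal relative to each array's 75th percentile, so 0 is a bright spot and a step of 1 is a doubling. Levels of different genes come from different probes and were not set against each other. A log2 change is the difference of group means, given with its standard error. Each array held 1 animal (n = 4 per group). Genes were tested with limma, a linear model that shares information on the spread across genes, with Benjamini-Hochberg adjustment over all 13673 genes and a threshold of 0.05. The 4 animals per group limit the precision. The RNA is from whole tissue, so fewer cells of a type and less RNA per cell cannot be told apart.

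The tissue label was borne out by its fibre genes. A probe could be matched to 10 of 12 skeletal fibre markers. All 10 passed the filter and were well above background on all 12 arrays. Of each array's spots, 53.2% to 68.7% were well above background. The file headers place 7 arrays on scan day 2, namely control replicate 4 and replicates 1 to 3 of both treated groups. Their mean negative-control signal was 98.6 to 123, against 59.5 to 73.1 on the other 5 arrays. Scan day is thus partly tied to group, and the value within scan day 2 is given beside a result whose direction or size it alters. Control against treated within scan day 2 rests on 1 control. On that day the 3 combination arrays share a slide of their own, while the control and the 3 dexamethasone arrays share another, so within it combination treatment and slide cannot be told apart. Of the other 5 arrays, control replicates 1 to 3 were scanned on day 1. Dexamethasone replicate 4 was scanned on day 3 and combination replicate 4 on day 4. Values on the other scan days thus rest on 1 bull per treated group and compare no arrays of the same day. There animal, group and day cannot be told apart. The label code of dexamethasone replicate 4 names another slide than its file header, and the header was used for its slide and scan day.

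Of the 35 measured vessel genes, 32 were well above background on all 12 arrays. The exceptions were the ligand ANGPT2 (3 of 4 controls, 1 of 4 dexamethasone and 1 of 4 combination bulls), the apelin receptor APLNR (2 of 4, 2 of 4 and none of 4) and the pericyte proteoglycan CSPG4 (3 of 4 in each group). The defining genes of endothelium (PECAM1, CDH5, VWF), of smooth muscle (ACTA2, MYH11) and of pericytes (PDGFRB, RGS5) were therefore all measured in every animal.

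In dexamethasone against control bulls, limma called 0 of the 35 genes, while it called 0.614% of all genes, 84 in number (0.0293% higher and 0.585% lower). Without adjustment, 10 of the 35 had a p under 0.05, 6 higher and 4 lower, against 12.3% of all genes (5.46% higher and 6.87% lower). In combination against control bulls it called 0 of 35, against 0.0439% of all genes, and listed 10 at an unadjusted p under 0.05, all higher, against 12.1% of all genes (6.97% higher). In combination against dexamethasone bulls it called 0 of 35, against 0.0146% of all genes, and listed 4, all higher, against 11% of all genes (6.69% higher). The first and second comparisons share their control bulls, and the third shares its animals with both, so their counts are not independent. With a block of scan day 2 against the rest in the model, the 10, 10 and 4 genes at an unadjusted p under 0.05 became 5, 6 and 4. The share over all genes under that block was not counted.

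**Figure D1:**
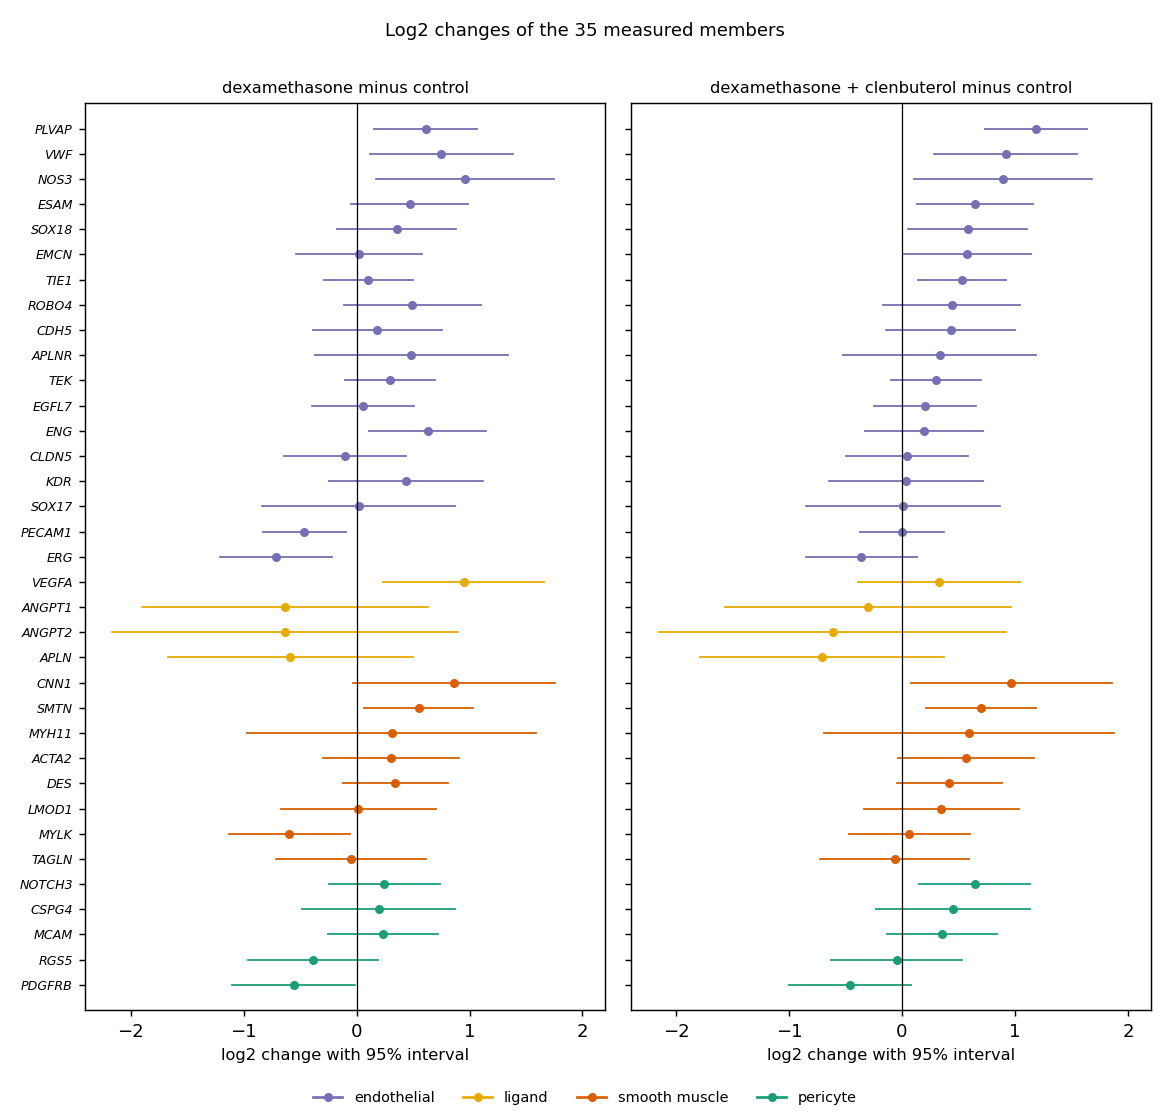
Log2 change (x axis) with its 95% interval for each of the 35 measured genes, in dexamethasone bulls and in combination bulls, each minus the same 4 controls; colours mark the 4 classes. PLVAP has the highest value on the right at 1.19, whereas ERG and PECAM1 lie lowest among the endothelial genes on the left, at -0.72 and -0.46.

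The endothelial genes lay mostly above the controls. Of the 18 measured, 15 had a log2 change above 0 in dexamethasone bulls (median 0.33) and 16 in combination bulls (median 0.38). Both counts include the dim APLNR, which was not well above background in any combination bull. Over all genes 54.6% and 53.7% lay above 0, with medians of 0.03 and 0.03. Within scan day 2 the endothelial medians were 0.04 and 0.14, and on the other scan days 0.24 and 0.20. Without dexamethasone replicate 3 the first of them was 0.16. Between combination and dexamethasone bulls, 11 of 18 lay above 0, with a median of 0.16, against 52.3% above 0 and a median of 0.02 over all genes. That endothelial median was 0.27 within scan day 2. With scaling by the array median it was 0.06, where the median over all genes was -0.08. The endothelial median was 0.28 without dexamethasone replicate 3 and 0.10 without dexamethasone replicate 4.

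PLVAP encodes the protein of the diaphragms that span endothelial pores. Its levels in control replicates 1 to 4 were -1.71, -2.16, -2.26 and -2.03. They were -1.25, -1.17, -1.50 and -1.78 in the dexamethasone bulls, and -0.65, -0.88, -1.32 and -0.56 in the combination bulls. Every combination bull lay above every control bull. The dexamethasone bulls overlapped both groups, with replicate 4 inside the control range. The log2 change against control was 1.19 ± 0.21 in combination bulls, a 2.28-fold higher level (limma adjusted p = 0.123, ninth of all genes by p). In dexamethasone bulls it was 0.61 ± 0.21 (limma adjusted p = 0.244). Combination against dexamethasone bulls gave 0.58 ± 0.21 (limma adjusted p = 0.344), and 0.36 within scan day 2. Within that day the value for combination against control was 1.08, and on the other days 1.48. Over the 24 alternative analyses the adjusted p of that comparison ran from 0.0801 to 0.472.

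VWF encodes von Willebrand factor, the clotting protein that endothelium stores. It was at -0.11, -0.53, -0.05 and 0.52 in the controls, at 0.97, 0.55, 1.15 and 0.17 in the dexamethasone bulls and at 0.50, 0.90, 0.61 and 1.49 in the combination bulls. Control replicate 4 lay inside the treated range, and the other 3 controls lay below all 8 treated bulls. The log2 changes against control were 0.75 ± 0.29 with dexamethasone (limma adjusted p = 0.307) and 0.92 ± 0.29 with the combination (limma adjusted p = 0.268). Within scan day 2, where replicate 4 is the only control, they were 0.37 and 0.15.

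NOS3, the endothelial nitric oxide synthase, followed the same layout. Its levels were 0.24, 0.51, 0.58 and 1.45 in the controls, 1.63, 1.35, 1.59 and 2.03 in the dexamethasone bulls and 0.75, 2.35, 1.12 and 2.14 in the combination bulls. Control replicate 4 was again the highest of its group and lay among the treated bulls. The log2 change was 0.96 ± 0.36 with dexamethasone and 0.90 ± 0.36 with the combination (limma adjusted p = 0.299 and 0.366), but 0.08 and -0.04 within scan day 2.

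ENG, the TGF-beta co-receptor endoglin, stood at 1.18, 1.09, 1.12 and 1.94 in the controls, with replicate 4 far above the other 3. The dexamethasone bulls were at 1.59, 1.97, 2.40 and 1.90 and the combination bulls at 1.49, 1.93, 1.24 and 1.45. Control replicate 4 lay inside the dexamethasone range and just above the combination range, and the other 3 controls lay below both. The log2 change with dexamethasone was 0.63 ± 0.24 over all arrays (limma adjusted p = 0.299), 0.05 within scan day 2, and 0.83 without control replicate 4. With the combination it was 0.20 ± 0.24 (limma adjusted p = 0.776), and -0.38 within scan day 2.

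TIE1 encodes the partner receptor of TEK. It was at -3.86, -3.43, -3.53 and -3.26 in the controls, -3.62, -3.48, -3.08 and -3.48 in the dexamethasone bulls and -3.13, -2.90, -2.75 and -3.18 in the combination bulls. The combination bulls lay above all controls, and the dexamethasone bulls overlapped both groups. The log2 change of TIE1 was 0.53 ± 0.18 in combination against control (limma adjusted p = 0.293), 0.11 ± 0.18 in dexamethasone against control (limma adjusted p = 0.869) and 0.43 ± 0.18 in combination against dexamethasone bulls (limma adjusted p = 0.410). The values of TIE1 against control within scan day 2 were 0.33 with the combination and -0.14 with dexamethasone. With another background correction, normexp, the TIE1 change in combination bulls was 0.26 against control and 0.24 against dexamethasone bulls. TEK, the receptor that binds the angiopoietins, had a log2 change of 0.30 ± 0.18 in each treated group, and within scan day 2 0.53 with dexamethasone and 0.38 with the combination. Its controls sat within -0.58 to -0.49, a narrow range, and the combination bulls at -0.33 to -0.07, again without overlap. The dexamethasone bulls spread from -0.75 to 0.19 around both.

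KDR, the main VEGF receptor of endothelium, was at -1.24, -1.41, -1.32 and -0.97 in the controls and at -1.18, -0.76, 0.01 and -1.28 in the dexamethasone bulls. In the combination bulls it was at -1.43, -0.52, -1.03 and -1.81. Dexamethasone replicate 3 was the highest of the 12 arrays and combination replicate 4 the lowest, and the groups overlapped. Its log2 changes against control were 0.44 ± 0.31 and 0.04 ± 0.31 (limma adjusted p = 0.625 and 0.974), and 0.33 and -0.02 within scan day 2.

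PECAM1, the junction protein CD31 and the most used endothelial marker, did not follow PLVAP or VWF. Its levels were -0.47, -0.59, -0.98 and -0.44 in the controls, -1.13, -1.07, -0.91 and -1.23 in the dexamethasone bulls, and -0.45, -0.64, -0.93 and -0.46 in the combination bulls. The dexamethasone bulls lay below 3 of the 4 controls and overlapped with replicate 3 of both other groups. The log2 change was -0.46 ± 0.17 with dexamethasone (limma adjusted p = 0.281) and 0.00 ± 0.17 with the combination, with a 95% interval of -0.37 to 0.37. Combination against dexamethasone bulls gave 0.46 ± 0.17 (limma adjusted p = 0.345). The dexamethasone value was -0.60 within scan day 2 and -0.55 outside it, and the combination value -0.23 and 0.22.

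ERG, a transcription factor that maintains endothelial identity, also had its lowest levels in dexamethasone bulls. They were at -2.04, -2.76, -1.91 and -1.80, against -1.16, -1.83, -1.53 and -1.13 in the controls and -1.84, -1.92, -1.68 and -1.65 in the combination bulls. Control replicate 2 and dexamethasone replicate 4 overlapped, and the combination bulls sat close together between the group means. The log2 change with dexamethasone was -0.72 ± 0.23, the smallest p among the 35 genes in that comparison (limma adjusted p = 0.210). Within scan day 2 it was -1.11, and on the other days -0.29. A second ERG probe gave -0.69 ± 0.22 with dexamethasone. That probe gave -0.02 ± 0.22 with the combination, where the first gave -0.36 ± 0.23, and -0.68 within scan day 2.

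CDH5, the VE-cadherin of endothelial junctions, was at -0.55, -0.64, -0.14 and -0.19 in the controls and at -0.24, -0.31, 0.01 and -0.23 in the dexamethasone bulls. The combination bulls were at 0.25, 0.31, 0.50 and -0.84. Of these, 3 lay above every other array and replicate 4 lay below every other array. The log2 change with the combination was 0.43 ± 0.26 over all 4 bulls (limma adjusted p = 0.523), 0.54 within scan day 2 and -0.40 outside it, where replicate 4 is the only combination bull.

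**Figure D2:**
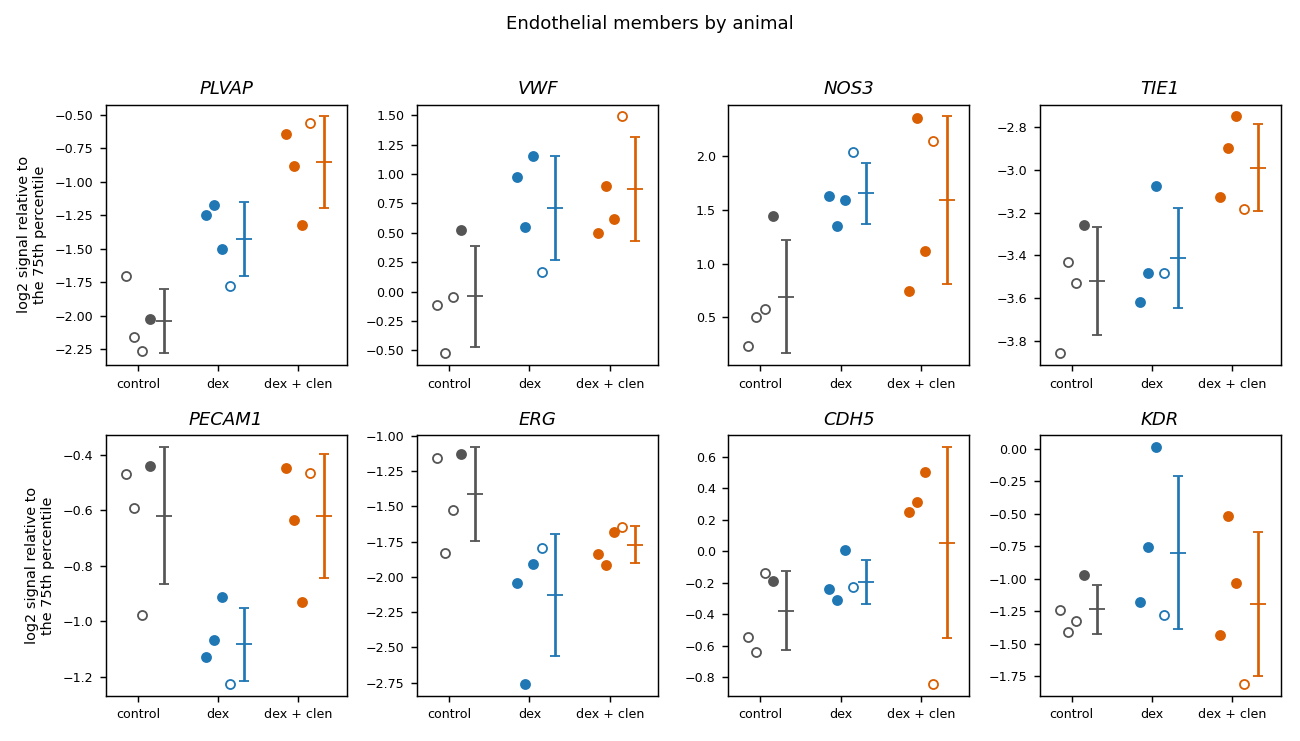
Level of 8 endothelial genes (y axis, log2 signal relative to the 75th percentile) in each of the 12 bulls by group, with mean and SD beside the points; filled points were scanned on day 2, open points on other days, and dex and clen stand for dexamethasone and clenbuterol. For PLVAP and TIE1 all combination bulls sit above all controls, while for VWF and NOS3 the 1 filled control sits among the treated bulls.

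The other endothelial genes were the junction proteins ESAM and CLDN5, the surface sialoprotein EMCN, the guidance receptor ROBO4, the secreted EGFL7, the factors SOX17 and SOX18, and APLNR. With dexamethasone their log2 changes ran from -0.10 (CLDN5) to 0.49 (ROBO4), and the smallest limma adjusted p among them was 0.450. The same 8 genes ran from -0.76 (SOX17) to 0.27 (SOX18) within scan day 2. With the combination ESAM had 0.65 ± 0.24, SOX18 0.58 ± 0.24 and EMCN 0.58 ± 0.26 (limma adjusted p = 0.328, 0.372 and 0.400), against 0.35, 0.67 and 0.47 within scan day 2. Each of these 3 overlapped with the controls. CLDN5 and SOX17 had combination values of 0.04 and 0.01, and -0.18 and -0.50 within scan day 2. APLNR was not well above background in any combination bull, so no fold against control is given for it there.

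The genes for signals were the most variable of the 4 classes. Their median residual SD, the spread within groups on the log2 scale, was 0.87, against 0.36 for the endothelial genes and 0.35 over all genes. VEGFA encodes the growth factor that binds KDR, and muscle fibres are a known source of it. Its levels were -0.68, -0.49, -0.34 and -0.58 in the controls, -0.45, 0.75, 1.098 and 0.32 in the dexamethasone bulls, and 0.07, 0.01, 0.16 and -1.01 in the combination bulls. Dexamethasone replicates 2 to 4 lay above every control and every combination bull, and replicate 1 lay inside the control range. The log2 change with dexamethasone was 0.95 ± 0.33, a 1.93-fold higher mean (limma adjusted p = 0.254), with 1.05 within scan day 2 and 0.82 outside it. Without dexamethasone replicate 1 it was 1.24 (limma adjusted p = 0.0541), and over all 24 alternatives the adjusted p ran from 0.0541 to 0.607. In combination against control bulls it was 0.33 ± 0.33, and in combination against dexamethasone bulls -0.62 ± 0.33 (limma adjusted p = 0.717 and 0.529), against 0.66 and -0.39 within scan day 2.

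APLN, the apelin peptide, spread from -1.30 to 0.62 in the controls, from -1.86 to -0.14 in the dexamethasone bulls and from -2.12 to -0.22 in the combination bulls. These ranges overlapped widely. The log2 changes were -0.59 ± 0.50 and -0.71 ± 0.50 (limma adjusted p = 0.698 and 0.586), while a second probe gave 0.06 ± 0.26 and 0.13 ± 0.26. For the first probe they were -1.80 and -1.83 within scan day 2, and 0.51 and 0.12 on the other days. ANGPT1, the activating TEK ligand, was at 0.91, -2.50, -0.32 and -1.15 in the combination bulls, a wider span than the controls' -1.52 to 0.11 or the dexamethasone bulls' -1.40 to -0.84. Its log2 change in combination against dexamethasone bulls was 0.33 ± 0.58 (limma adjusted p = 0.878). ANGPT2, the context-dependent TEK ligand, was dim, and its log2 changes against control of -0.63 and -0.61 each carried a standard error of 0.71. Both turned above 0 within scan day 2 (0.10 and 0.23), on the other days (0.52 and 0.23) and with scan day 2 as a block (0.28 and 0.30), so no direction is given for ANGPT2.

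The smooth muscle genes had a median log2 change of 0.31 in dexamethasone bulls (6 of 8 above 0) and 0.49 in combination bulls (7 of 8 above 0). Within scan day 2 these medians were 0.36 and 0.34. For combination against dexamethasone bulls the median was 0.21 over all arrays, and -0.02 within scan day 2. Combination replicate 4, which was not scanned on day 2, was the highest of the 12 arrays for 6 of the 8 genes.

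ACTA2, smooth muscle alpha-actin, was at 2.16, 2.56, 2.14 and 2.17 in the controls, 2.50, 2.50, 2.92 and 2.33 in the dexamethasone bulls and 2.53, 2.41, 2.57 and 3.78 in the combination bulls. Combination replicate 4 stood more than a log2 unit above the others of its group, which lay within the dexamethasone range. The log2 change with the combination was 0.56 ± 0.28 (limma adjusted p = 0.438), 0.33 within scan day 2 and 0.25 without that animal. MYH11, the smooth muscle myosin heavy chain, was at -0.50, 0.40, 0.54 and -0.93 in the controls, at 0.94, 0.05, -0.07 and -0.16 with dexamethasone and at -0.95, 0.23, 0.21 and 2.39 with the combination. Its control and dexamethasone ranges overlapped, and the combination range enclosed both. The log2 change of 0.59 ± 0.59 with the combination became -0.05 without replicate 4.

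CNN1, the actin-binding calponin, was at 2.21, 2.66, 1.98 and 2.53 in the controls and at 3.08, 2.83, 3.41 and 3.53 in the dexamethasone bulls, with no overlap. The combination bulls spread from 2.04 to 4.29 across both groups. Its log2 changes were 0.87 ± 0.41 and 0.97 ± 0.41 (limma adjusted p = 0.421 and 0.380). They were 0.58 and 0.46 within scan day 2, and 1.24 and 2.00 on the other days. SMTN, smoothelin, a protein of fully contractile smooth muscle, was at 2.94, 3.12, 3.54 and 3.43 in the controls, 3.97, 3.47, 4.27 and 3.52 with dexamethasone and 3.94, 4.26, 4.03 and 3.59 with the combination. All combination bulls lay above all controls, by a narrow gap between combination replicate 4 and control replicate 3. The log2 changes were 0.55 ± 0.22 and 0.70 ± 0.22 (limma adjusted p = 0.333 and 0.269), and 0.47 and 0.65 within scan day 2.

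MYLK, the kinase that triggers contraction by phosphorylating myosin light chain, ran the other way with dexamethasone. Its levels were 0.999, 1.23, 0.90 and 0.70 in the controls and 0.22, 0.41, 0.65 and 0.18 in the dexamethasone bulls, again with no overlap. The combination bulls were at 0.86, 0.66, 0.76 and 1.83, all above the dexamethasone bulls, the nearest pair being combination replicate 2 and dexamethasone replicate 3. The log2 change was -0.59 ± 0.25 with dexamethasone (limma adjusted p = 0.348), 0.07 ± 0.25 with the combination and 0.66 ± 0.25 between the treated groups (limma adjusted p = 0.357). Within scan day 2 the first and last of these were -0.28 and 0.33. A second probe gave -0.44 ± 0.34 and 0.48 ± 0.34 for them.

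DES, desmin, is also an intermediate filament of skeletal fibres, so in this tissue its signal is not specific to vessels. It was at 6.70, 6.51, 7.60 and 7.06 in the controls and within 7.20 to 7.51 and 7.27 to 7.56 in the treated groups, whose 8 animals all lay inside the control range. TAGLN, transgelin, an actin-binding protein, had log2 changes against control of -0.05 ± 0.30 and -0.07 ± 0.30. Within scan day 2 these were -0.27 and -0.51. On the other days they were 0.29 and 0.97, resting on dexamethasone replicate 4 and combination replicate 4 alone. LMOD1, leiomodin, had 0.01 ± 0.32 and 0.35 ± 0.32, and -0.27 and -0.02 within scan day 2. In combination against dexamethasone bulls LMOD1 had 0.34 ± 0.32 (limma adjusted p = 0.748).

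**Figure D3:**
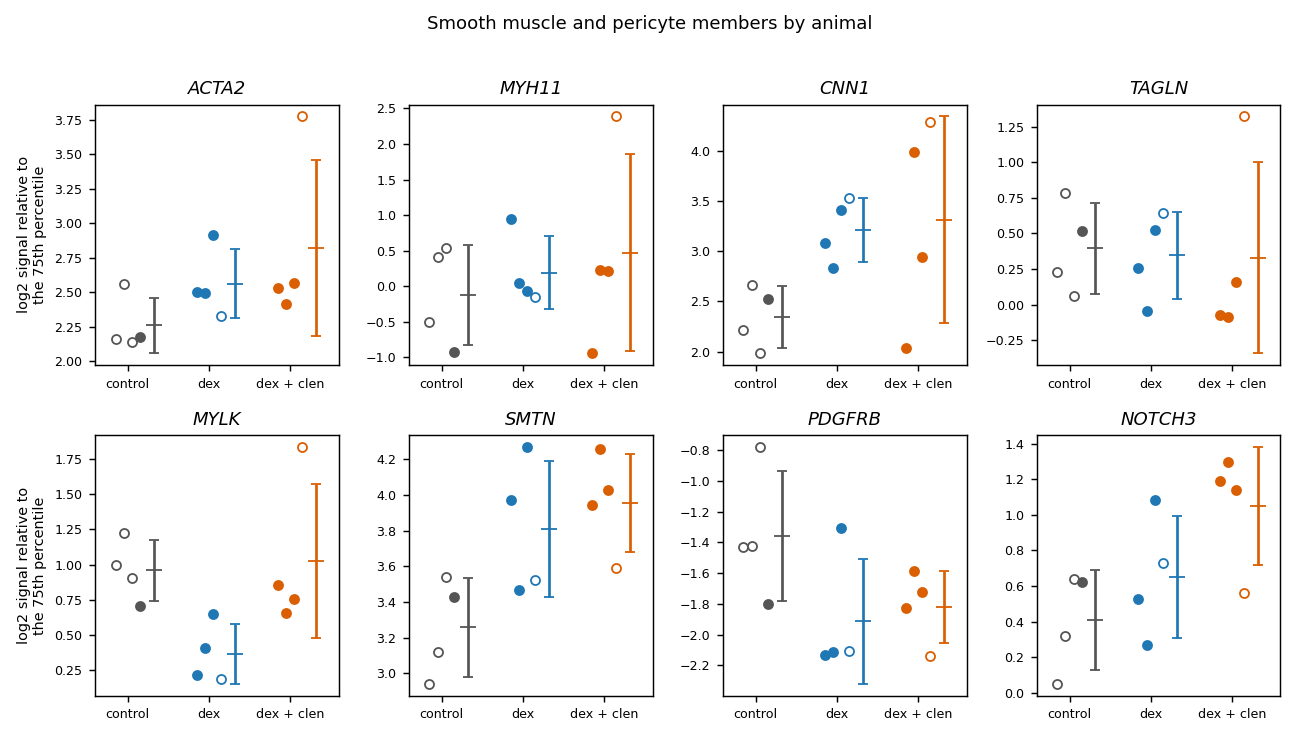
Level of 6 smooth muscle genes and 2 pericyte genes (y axis, log2 signal relative to the 75th percentile) in each of the 12 bulls, with mean and SD per group; filled points were scanned on day 2, open points on other days. The open combination point, replicate 4, is the highest of all arrays for ACTA2 (3.78), MYH11 (2.39), CNN1 (4.29), TAGLN (1.32) and MYLK (1.83), and not for SMTN, PDGFRB or NOTCH3.

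The non-overlap of single genes is to be read against the background. In dexamethasone against control bulls, 2 of the 35 genes did not overlap (CNN1 higher, MYLK lower), against 6.45% of all genes (2.52% higher and 3.93% lower). In combination against control bulls 4 did not (PLVAP, TEK, TIE1 and SMTN, all higher), against 8.23% of all genes, or 4.51% counting higher ones. In combination against dexamethasone bulls 1 did not (MYLK, higher), against 5.3% of all genes (2.53% higher).

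The pericyte genes differed in direction, none past the test. In dexamethasone bulls PDGFRB and RGS5 lay below the controls on average and the other 3 above, with a median of 0.20 (-0.05 within scan day 2). In combination bulls the same counts held, with a median of 0.35 (0.50 within scan day 2). In combination against dexamethasone bulls all 5 had values above 0, from 0.10 to 0.40, each with a limma adjusted p of 0.557 or more. These directions are those of each gene's brightest probe. The second probes of RGS5 and MCAM gave -0.10 and 0.35 in that comparison. With dexamethasone they gave 0.21 and -0.21, each opposite to the first probe.

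PDGFRB, the receptor through which endothelium recruits pericytes, is also carried by fibroblasts. It was at -1.43, -1.43, -0.78 and -1.80 in the controls, -2.13, -2.11, -1.30 and -2.11 with dexamethasone and -1.83, -1.59, -1.73 and -2.14 with the combination. Dexamethasone replicate 3 stood apart from the other 3 of its group and overlapped with the controls. The log2 changes were -0.56 ± 0.25 and -0.46 ± 0.25 (limma adjusted p = 0.392 and 0.477), and -0.05 and 0.09 within scan day 2.

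RGS5, a brake on G-protein signalling used as a pericyte marker, was at 2.17, 2.17, 2.18 and 1.85 in the controls and at 1.63, 1.71, 1.91 and 1.58 in the dexamethasone bulls. In the combination bulls it was at 2.63, 2.35, 2.06 and 1.14, from the highest of the 12 arrays to the lowest. Its log2 change with dexamethasone was -0.39 ± 0.27 (limma adjusted p = 0.602), -0.10 within scan day 2, and a second probe gave 0.21 ± 0.33. In combination against dexamethasone bulls the values were 0.34 ± 0.27 (0.60 within scan day 2) and, for the second probe, -0.10 ± 0.33.

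NOTCH3, the receptor that keeps mural cells mature, was at 0.05, 0.32, 0.64 and 0.62 in the controls, 0.53, 0.27, 1.08 and 0.73 with dexamethasone and 1.19, 1.30, 1.14 and 0.56 with the combination. The 3 combination bulls of scan day 2, which share a slide, lay above every other array, while replicate 4 lay inside the control range. The log2 change with the combination was 0.64 ± 0.23 (limma adjusted p = 0.316), and that with dexamethasone 0.25 ± 0.23, with 0.59 and 0.00 within scan day 2. MCAM, an adhesion protein also found on endothelium, had 0.23 ± 0.22 and 0.35 ± 0.22 (0.10 and 0.56 within scan day 2). Its second probe gave -0.21 ± 0.18 with dexamethasone, so no direction is given for it. CSPG4 had 0.20 ± 0.31 and 0.45 ± 0.31, and -0.29 and -0.02 within scan day 2.

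Endothelial and mural genes were set against each other by averaging each class on every array after centring each gene on its mean over the 12 arrays. The endothelial mean was -0.38, -0.38, -0.19 and 0.09 in the controls, -0.11, 0.01, 0.33 and -0.06 in the dexamethasone bulls and 0.20, 0.35, 0.15 and -0.01 in the combination bulls. The mural mean was -0.36, -0.09, 0.01 and -0.19 in the controls, -0.17, -0.08, 0.11 and -0.03 with dexamethasone and -0.04, 0.26, 0.08 and 0.47 with the combination. In both classes 3 of the combination bulls lay above 0, and the groups overlapped. Control replicate 4, the only control scanned on day 2, had the highest endothelial mean of the controls and a mural mean below 2 of the other 3.

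The difference of endothelial minus mural mean was -0.06 ± 0.25 (SD, n = 4) in the controls, 0.08 ± 0.10 in the dexamethasone bulls and -0.02 ± 0.31 in the combination bulls. These differences of means were smaller than the spread within the control and combination groups. Combination replicate 4 had the lowest difference of all arrays at -0.47, with a smooth muscle mean of 0.93, against -0.24 to 0.17 in the rest of its group. Control replicate 4 had the highest at 0.28. Over the mural genes, the median log2 change was 0.23 with dexamethasone, 0.42 with the combination and 0.25 between the treated groups, against 0.33, 0.38 and 0.16 for the endothelial genes. The mural medians within scan day 2 were 0.00, 0.34 and 0.18. The mural median with dexamethasone was 0.13 without control replicate 1, that with the combination 0.25 without combination replicate 4, and that between the treated groups 0.13 without combination replicate 2.

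**Figure D4:**
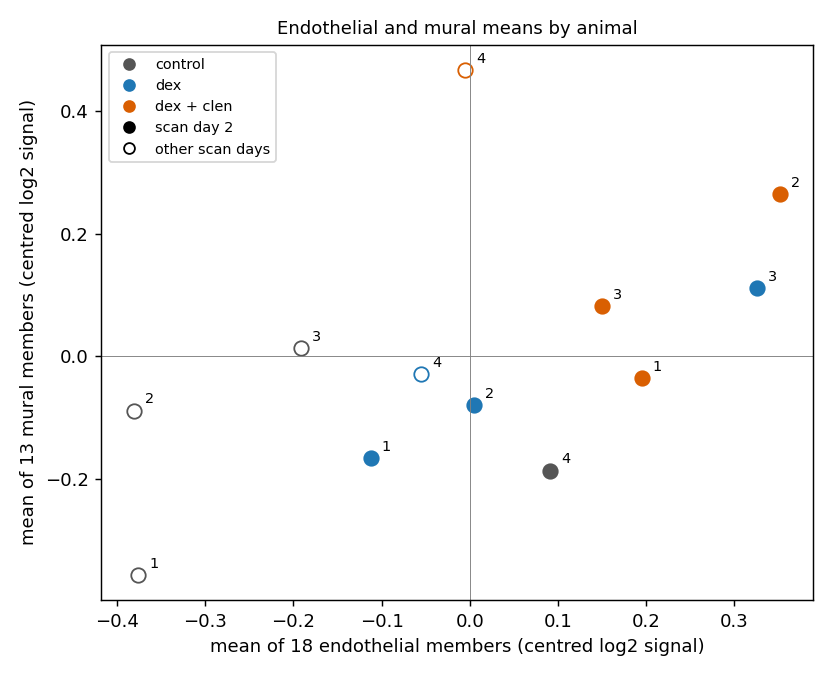
Mean of the 13 mural genes (y axis) against the mean of the 18 endothelial genes (x axis), both as log2 signal centred per gene over the 12 bulls; colours mark groups, digits the replicate, and filled points scan day 2, with dex and clen standing for dexamethasone and clenbuterol. Controls 1 to 3 lie lowest on the endothelial axis (-0.38 to -0.19), and combination replicate 4 lies highest on the mural axis (0.47) with an endothelial mean near 0.

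Markers of other cells of the tissue were read on the same arrays. All 9 fibroblast markers were measured, and all 9 had a log2 change below 0 in dexamethasone bulls (median -1.20). Of these, limma called 0, against 0.585% of all genes called lower, and 7 had an unadjusted p under 0.05, against 6.87% of all genes lower at that p. Their mean centred level was 0.37 to 0.78 in the controls, -1.36 to 0.31 in the dexamethasone bulls and -0.50 to 0.69 in the combination bulls. The mean of 7 leukocyte markers was 0.46 to 1.002 in the controls, -1.52 to 1.17 with dexamethasone and -0.44 to 0.26 with the combination. Of the 7, 1 was called lower with dexamethasone, the T cell gene CD3E (log2 change -1.74 ± 0.31, limma adjusted p = 0.0312). CD3E was well above background on 3 of 4 dexamethasone arrays, and its call was not checked under the alternatives. The skeletal fibre mean overlapped between all groups (-0.23 to 0.29, -0.72 to 0.32 and -0.50 to 0.37). Within it MB was saturated, at the scanner's ceiling, on 12 arrays and TNNC2 on 9. TNNT3 ranged from 0.99 to 7.48 with a residual SD of 2.62, so that mean could miss a change. The satellite cell marker PAX7, the fat cell genes ADIPOQ and LEP and the red cell gene ALAS2 did not pass the filter. No probe could be matched to the Schwann cell gene SOX10. The part of these cells in the vessel values, including those of PDGFRB, was not tested.

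A wider set of vessel genes, listed apart from the 36, held the few that passed the test. Of 38 further angiogenic signals and receptors 33 were measured, and 2 were called lower with dexamethasone, against 0.585% of all genes. AGTR1, the angiotensin II receptor that makes arterioles contract and that pericytes also carry, was at -1.03, -1.19, -1.42 and -1.65 in the controls, -3.60, -3.29, -3.30 and -4.04 in the dexamethasone bulls and -2.06, -2.94, -2.45 and -2.15 in the combination bulls. The 3 groups did not overlap anywhere, with the combination bulls between the others. AGTR1 fell with dexamethasone by a log2 change of -2.24 ± 0.24, 4.71-fold (limma adjusted p = 0.00242), with -1.74 within scan day 2. With normexp background correction, a model of the local background, the change was -1.46. It stayed called in 23 of 24 alternatives, the exception being scan day as a fixed block, and the adjusted p over all 24 ran from 0.00136 to 0.190. The combination value of -1.08 ± 0.24 and the value of 1.16 ± 0.24 between treated groups did not pass (limma adjusted p = 0.161 and 0.147).

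VEGFD, a growth factor of lymphatic vessels, was at -3.23, -3.31, -2.85 and -3.27 in the controls and within -4.06 to -3.94 in the dexamethasone bulls, 3 of which were well above background. The combination bulls lay between, from -3.83 to -3.44, again overlapping neither group. VEGFD fell with dexamethasone by -0.83 ± 0.15 (limma adjusted p = 0.0312; -0.45 with normexp background, not called), and the combination value was -0.46 ± 0.15 (limma adjusted p = 0.277). The VEGFD call held in 8 of 23 alternatives and was lost without any 1 of the 4 controls and without dexamethasone replicate 2 or 3, the adjusted p over all 23 running from 0.0254 to 0.437. PGF, a VEGF relative, had -2.60 ± 0.57 with dexamethasone (limma adjusted p = 0.0750), with 3 of 4 dexamethasone arrays well above background. HEYL, a NOTCH target gene of mural cells, was at -0.72 to -0.07 in the dexamethasone bulls and 0.24 to 0.97 in the combination bulls, without overlap (log2 change 0.96 ± 0.23, limma adjusted p = 0.168).

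Among 35 further endothelial genes 28 were measured, and those called were LIPG and LYVE1, both lower with dexamethasone (against 0.585% of all genes), and LIPG also with the combination (against 0.0439% of all genes called in either direction). LIPG, the endothelial lipase, was within -3.32 to -2.67 in the controls, -6.79 to -5.36 with dexamethasone and -5.86 to -4.66 with the combination, without overlap between controls and either treated group. Only 1 of 4 arrays in each treated group was well above background, so the sizes of its log2 changes, -3.15 ± 0.32 and -2.35 ± 0.32 (limma adjusted p = 0.00242 and 0.0354), are uncertain. With normexp background they were -1.135 and -1.003, shifts larger than those standard errors. The dexamethasone call held in 22 of 23 alternatives, failing with scan day as a fixed block (adjusted p = 0.0967, the lowest of the 23 being 0.00136), and the combination call in 6 of 23 (0.0203 to 0.254). The combination call was lost without any 1 of the 4 controls, of the 4 combination bulls, or of dexamethasone replicates 2 to 4. LYVE1, a hyaluronan receptor of lymphatic endothelium and of some macrophages, was at -1.56 to -0.85 in the controls, -4.88 to -2.58 with dexamethasone and -3.94 to -1.88 with the combination. Its log2 changes were -2.84 ± 0.50, which passed (limma adjusted p = 0.0312), and -1.47 ± 0.50, which did not (limma adjusted p = 0.296). With normexp background the first was -1.75. The LYVE1 call held in 13 of 23 alternatives (0.00422 to 0.435) and was lost without any 1 of the 4 controls and without dexamethasone replicate 2, 3 or 4. TAL1, a transcription factor of blood and vessel precursors, had 0.83 ± 0.22 in combination against control bulls, without overlap, and PTPRB, the endothelial phosphatase that acts on TEK, had 0.87 ± 0.23 in combination against dexamethasone bulls (limma adjusted p = 0.215 and 0.193). PTPRB was well above background in 2 of 4 dexamethasone bulls. The 28 genes had medians of 0.07, 0.20 and 0.25 in the 3 comparisons (-0.13, 0.12 and 0.24 within scan day 2), and the 33 angiogenic genes -0.04, 0.03 and 0.25 (-0.33, 0.01 and 0.21), against 0.03, 0.03 and 0.02 over all genes.

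Of 28 further mural genes 25 were measured and limma called 0 in each comparison. At an unadjusted p under 0.05 there were 5, 5 and 3, against 12.3%, 12.1% and 11% of all genes. With dexamethasone 1 of the 5 was higher and 4 lower, against 5.46% and 6.87% of all genes. The medians were -0.06, 0.14 and 0.21 (-0.21, 0.08 and 0.14 within scan day 2), against 0.03, 0.03 and 0.02 over all genes. With dexamethasone 11 of the 25 lay above 0, against 54.6% of all genes. Levels of TPM1, TPM2 and SYNM ran from 6.61 to 9.24, and the part of skeletal fibres in these values was not tested. EBF1, a mural and fat cell transcription factor, had -0.76 ± 0.22 with dexamethasone, and ITGA8, an integrin of mural cells and fibroblasts, had -1.48 ± 0.45 (limma adjusted p = 0.168 and 0.190). Only 1 of 4 dexamethasone arrays was well above background for ITGA8. MYL9, the regulatory light chain that MYLK phosphorylates, was at 0.61 to 1.16 in the controls and 1.22 to 2.68 with the combination, without overlap and with replicate 4 again the highest. Its log2 change of 0.98 ± 0.33 did not pass (limma adjusted p = 0.290), and was 0.32 within scan day 2. HIGD1B, a gene enriched in pericytes, had -1.14 ± 0.40 in combination against control bulls (limma adjusted p = 0.316). ANPEP, the aminopeptidase CD13 of pericytes and fibroblasts, was well above background in 3 of 4 combination bulls and in no dexamethasone bull. Its combination mean was at least 2.52-fold higher, a value that did not pass (limma adjusted p = 0.198). The combination bulls were at -5.22, -5.15, -3.91 and -2.85 against a mean floor of -5.61, so the bound rests mostly on replicates 3 and 4. Such a bound sets the brighter group's mean against a floor taken on each array of the dim group, the higher of that array's lowest level well above background and the gene's own level.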

How the data were processed

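Scanner files hold spot intensity on a linear scale, which the authors deposited as made by Agilent Feature Extraction 9.5.1.1, per the file headers. The authors' deposited value table, also intensity, ranks spots as the scanner signal does (Spearman at least 0.999996); its normalization is not given in the sources used, and it served as an alternative.

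Log2 of the processed signal minus each array's 75th percentile was averaged over the spots of a probe, outlier spots (1 to 7 per array) left out. Kept were the 14702 probes that reached well above background on 4 or more of the 12 arrays, and the brightest stood for its gene (13673 genes). Old names were updated through a RefSeq table (ARS-UCD2.0, names only). Of the 35 genes, 14 were named by gene number, 8 by accession, 5 by symbol and 8 by the human gene named in the annotation of the probe. The array design names no build, so no positions are given.

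The test was limma 3.58.1 (R 4.3.3), with 3 group means fitted over 12 arrays and eBayes, two-sided; the script was tested on simulated data. Members and lists were chosen with earlier results of these data known. Named with values are every called gene, per comparison and class the 2 genes of smallest p, and 10 fixed genes (PECAM1, CDH5, VWF, KDR, VEGFA, ACTA2, MYH11, DES, PDGFRB, RGS5). In each wider list the called genes and the 2 of smallest p follow the same rule. Every other vessel marker is named once with its class. Of these, NOS3, ENG, TIE1, TEK, ESAM, SOX18, EMCN, CLDN5, SOX17, ROBO4, ANGPT2, TAGLN, MCAM and CSPG4, and beside them PGF and CD3E, were given values after these were seen. Alternatives covered background correction, scaling, filters, probe choice, scan day, slide and leaving out each animal.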

Additional observations from a re-analysis of the deposited data

Results flagged for a closer look

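Among groups of 4, the gap between an extreme animal and its nearest neighbour, as a share of the group's range, passed Dixon's 95% limit for 4 values for 9 of 123 groups tested, where chance gives about 1 in 20. Combination replicate 4 was apart on the high side for ACTA2 (0.884) and MYLK (0.831) and on the low side for VEGFA (0.872). Control replicate 4 was high for ENG (0.896) and low for RGS5 (0.964), and control replicate 2 was high for ACTA2 (0.92). Dexamethasone replicate 3 was high for PDGFRB (0.972) and for the smooth muscle mean (0.842). Combination replicate 2 was low for the mean of the 4 signal genes (0.924).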

How the results depend on the processing

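Under 24 alternatives per comparison limma called 0 of the 35 genes (or of the 32 kept by the stricter filter). Without dexamethasone replicate 1 the smallest adjusted p was 0.0541 (VEGFA). Calls over all genes varied from 0 to 261 with dexamethasone (84 as reported), 0 to 11 with the combination (6) and 0 to 74 between treated groups (2). With scan day as a fixed block, and on scan day 2 alone, the endothelial median with dexamethasone was 0.037 and the mural 0.004. With the combination the endothelial median was 0.143 under the same settings and 0.183 with a block of scan day 2 against the rest, and the mural median was 0.608 on the other scan days. Leaving out 1 animal gave 0.163 to 0.368, 0.264 to 0.516 and 0.103 to 0.279 for the endothelial medians (dexamethasone, combination, between treated groups) and 0.125 to 0.319, 0.253 to 0.525 and 0.131 to 0.332 for the mural. The alternatives for the wider vessel lists were chosen after seeing the data. There, genes called with dexamethasone numbered 4 as reported, 2 without the dim filter and with the scan day 2 block, 1 under the all-arrays filter, 0 with the fixed scan day block and 2 to 5 with 1 animal left out. For the combination 1 became 0 with normexp, without the dim filter, under the all-arrays filter, with probe means and with each of the 3 blocks, and 0 to 1 with 1 animal left out. MCAM turned to -0.212 with its second probe. The causes were not tested. No paired analysis was possible because the labels give no replicate numbers that link animals across groups.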
